A study of Mus musculus with 4 samples.

Results

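The bone morphogenetic protein (BMP) genes described here are 10 in number, of 18193 genes represented on the arrays. They are the ligand genes Bmp2, Bmp4, Bmp5 and Bmp7, the receptor genes Bmpr1a, Bmpr1b and Bmpr2, and the genes of the secreted BMP-binding proteins Grem1, Bmper and Chrd. They were chosen by name, with earlier results of these data known. Every probe set that the platform annotation pairs with one of them alone was taken, 23 in all. The data are 4 Affymetrix Mouse430_2 arrays of whole mouse kidneys from E14.5 embryos (Theiler stage 22), made to compare kidneys that lack renal vesicles with kidneys that form them. Of these, 2 arrays hold kidneys homozygous null for Wnt4 (allele Wnt4tm1Amc, stated strain 129), each from a pool of 12 kidneys. The other 2 hold wild-type kidneys (stated strain CD-1), each from a pool of 2 kidneys. The records disagree on strain, since the strain field differs between the genotypes while the protocol text, the same for all 4 samples, describes matings of CD-1 mice. Genotype, strain as the field gives it and pool size changed together and cannot be told apart. Nothing in the labels ties a pool to a litter of its own, and the p-values therefore cover only the variation among these pools, which may be technical.

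BMPs are secreted dimers of the TGF-beta superfamily. They bind type I receptors such as BMPR1A and BMPR1B together with type II receptors such as BMPR2, and the receptor complex phosphorylates SMAD proteins that switch on target genes, the Id genes among them. Gremlin (Grem1) and chordin (Chrd) bind the ligands outside the cell and keep them from their receptors, while BMPER binds BMPs and chordin and can dampen or aid signalling depending on context. In the developing mouse kidney, Bmp7 is needed to keep nephron progenitors alive, Bmp4 in the mesenchyme around the ureter restrains budding, and Grem1 is needed for the ureteric bud to grow out.

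Signals are given in the linear units deposited by the authors. Differences are means of log2(signal + 16), mutant minus wild type, so they understate changes of dim genes. Wnt4 itself read 406 and 272 on the mutant arrays against 1885 and 1770 on the wild-type arrays at its brighter probe set (adjusted p = 0.000196). Median signal over all probe sets was 138 and 159 on the mutant arrays and 151 and 149 on the wild-type arrays. The transferrin receptor control had a 3' over 5' signal of 5.67 and 6.43 on the mutant arrays against 4.71 and 5.10 on the wild-type arrays. For Gapdh this ratio was 0.753 and 0.744 against 0.777 and 0.750, and for actin 1.56 and 1.54 against 1.59 and 1.43. The part of these ratios in the results was not tested. Markers of kidney cells were present. All 8 nephron progenitor genes listed passed the filter on low values. Of them Cited1 (1.93-fold) and Itga8 (1.35-fold) were lower and Osr1 (1.76-fold) was higher in the mutant (adjusted p = 0.00280, 0.0256 and 0.0102), and the summed signal of the list was 12048 to 12409 on the mutant and 12682 to 14332 on the wild-type arrays.

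Among the 10 genes, Bmper, Bmp5 and Bmpr1a rose in the mutant. Bmp2 fell, but it could be tested only because of its wild-type signal, since both mutant signals lay under the filter on low values, and it was not tested with a stricter filter, without wild-type replicate 2 or with a gene's probe sets averaged. The other 6, Bmp4, Bmp7, Bmpr1b, Bmpr2, Grem1 and Chrd, did not pass the test at their brightest probe set. A probe set was tested where its mean lay above the lowest 40% of the arrays' probe sets, and it passed at an adjusted p under 0.05. Of the 23 probe sets, 20 were tested. Of these, 2 were lower and 3 higher, that is 25%, against 10.8% of all 27022 tested probe sets (5.39% lower and 5.41% higher). Both lower probe sets, 1 of Bmp2 and 1 of Bmpr2, had mutant signals under the filter level and so had to differ to be tested. Nothing is read from their share, and with the lowest 60% left out 0 were lower because neither was tested. With the brightest tested probe set standing for each gene, 1 of 10 was lower and 3 were higher, against 5.82% and 6.70% of 13432 genes. The median log2 difference of the 10 genes was 0.34, against 0.00027 over all tested genes. Over their 20 tested probe sets the median was smaller, 0.11, against -0.011 over all tested probe sets. The mutant and wild-type arrays did not overlap at 13 of the 20 probe sets, against 54.1% of all tested probe sets, and at 9 of the 20 the mutant was the higher, against 26.1%. By gene they did not overlap at 8 of 10, against 57.1% of all genes. The lower Bmp2 and Bmpr2 probe sets are among the 13, and Bmp2 is among the 8, so nothing is read from these counts without overlap either. The shares and medians come from few genes, chosen with earlier results of these data known, and were not tested against those of all genes.

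**Figure D1:**
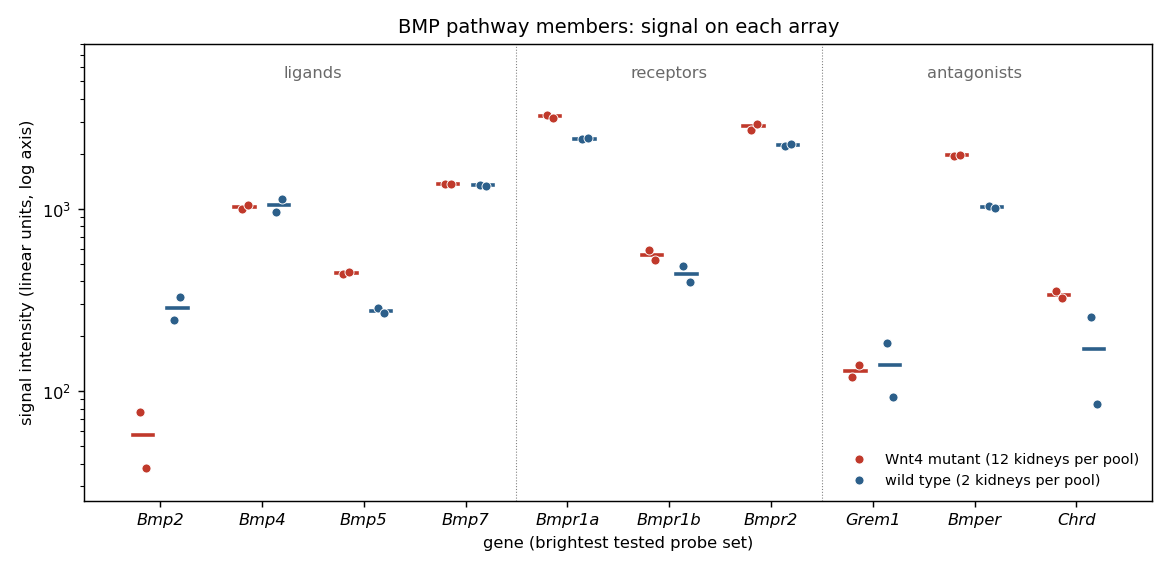
Signal intensity (log axis) of the 10 BMP genes at the brightest tested probe set of each, with Wnt4 mutant arrays in red to the left of wild-type arrays in blue; points are the 2 arrays of a group and bars their mean. Bmp2 lies lower in the mutant (57.0 against 287), Bmper, Bmp5 and Bmpr1a lie higher, and Bmp4 and Bmp7 lie at like levels in both.

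Whole kidneys were measured, so fewer cells of a type and less RNA per cell cannot be told apart in any of these values. Markers of several cell types moved with the genotype beside Bmp2. Of 9 tested renal vesicle genes 8 were lower in the mutant, with a summed list signal of 10623 to 10699 on the mutant and 21495 to 23071 on the wild-type arrays. Wnt4, the mutated gene itself, is counted among these 8 and in the sum. Of 8 proximal tubule and loop genes 7 were lower, with 1200 to 1368 against 8148 to 9199, and of 6 podocyte genes 5 were lower, with 3365 to 3608 against 7361 to 7726. Among the 7, Slc34a1 (68.5 and 31.8) and Cubn (30.5 and 13.9) had both mutant signals under the filter level. They had to differ to be tested, so nothing is read from their calls. Beside Bmp5, Bmper and Bmpr1a, 9 of 12 stromal genes were higher, with a summed signal of 80147 to 80344 on the mutant and 50768 to 55148 on the wild-type arrays. Of 11 skeletal muscle genes 8 were higher, with 9007 to 9197 against 1952 to 3023, while Acta1, Ttn and Des did not pass (adjusted p = 0.185, 0.630 and 0.880). Of 5 erythroid genes 3 were higher, with 22745 to 23796 against 9972 to 10175. Those 3 were the globin genes Hba-x, Hbb-y and Hbb-bh1, while Alas2 and Slc4a1 did not pass (adjusted p = 0.223 and 0.306). Beside Eng, 3 of 8 endothelial genes were lower, with 6996 to 7237 against 9691 to 9793. Those 3 were Plvap, Cldn5 and Emcn, while Pecam1, Cdh5, Kdr, Tek and Flt1 did not pass (adjusted p from 0.113 to 0.983). Pecam1 and Cdh5 had folds of 0.996 and 0.939. Of 11 ureteric bud and collecting duct genes 1 was lower and 2 were higher, of 5 smooth muscle genes 2 were lower, of 3 adrenal and gonad genes 1 was lower, and of 5 macrophage genes 0 passed by limma, with 1 at an unadjusted p under 0.05. The lower adrenal gene, Mc2r, likewise had both mutant signals (74.7 and 54.3) under the filter level. No marker had a signal of exactly 0. Below the filter lay Fgf8 (vesicle), Myf5 (skeletal muscle), Cnn1 (smooth muscle) and Nr5a1, Amh, Dazl and Ddx4 (adrenal and gonad). The part of these cell types in the BMP results was not tested.

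The 3 genes that rose are shown with the 250 bases upstream of their annotated start, from RefSeq, build GRCm38.p6, because they moved the same way. Each is written 5′ to 3′ on the gene's strand, and capitals mark matches to CTTTGA, the core recognised by TCF/LEF factors of the Wnt pathway, to GGCGCC, a GC-rich sequence bound by SMAD proteins, or to TATAAA, the TATA box, all searched on both strands.
Bmper (chr9:23222826-23223075, plus strand): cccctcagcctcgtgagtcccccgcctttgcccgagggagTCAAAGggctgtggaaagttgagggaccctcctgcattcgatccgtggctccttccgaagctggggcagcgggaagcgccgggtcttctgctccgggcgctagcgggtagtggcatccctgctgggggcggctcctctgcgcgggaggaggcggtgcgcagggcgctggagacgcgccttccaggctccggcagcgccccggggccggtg
Bmp5 (chr9:75775115-75775364, plus strand): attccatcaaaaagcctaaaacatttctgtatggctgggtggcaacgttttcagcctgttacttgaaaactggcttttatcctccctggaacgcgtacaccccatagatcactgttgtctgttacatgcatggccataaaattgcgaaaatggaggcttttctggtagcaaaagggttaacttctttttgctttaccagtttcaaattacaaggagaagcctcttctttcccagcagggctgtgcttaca
Bmpr1a (chr14:34502547-34502796, minus strand): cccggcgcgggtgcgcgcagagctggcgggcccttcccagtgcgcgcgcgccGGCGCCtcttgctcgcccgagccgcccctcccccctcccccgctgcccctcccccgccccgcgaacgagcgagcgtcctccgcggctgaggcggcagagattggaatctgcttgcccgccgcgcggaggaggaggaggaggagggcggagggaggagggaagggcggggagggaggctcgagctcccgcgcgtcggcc

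The 3 windows share little. G and C made up 71.6% of the Bmper window and 78.8% of the Bmpr1a window, but 42.8% of the Bmp5 window, against a median of 52.4% over the 32851 promoters of the table. The Bmper window held 1 match to the TCF/LEF core, 210 bases before the start, the Bmpr1a window held 1 match to GGCGCC, 198 bases before the start, and the Bmp5 window held none of the 3 motifs. In all promoters, 13.8% held the TCF/LEF core, 9.59% held GGCGCC and 12.4% held the TATA box in a window of this length. Of the 8 BMP genes with an entry (all but Bmp2 and Bmp7), 4 held GGCGCC, namely Grem1, Chrd, Bmpr1a and Bmpr2. Their windows were 72%, 78%, 78.8% and 64% G and C, in that order, and GGCGCC is itself all G and C. The count was not tested against windows of like G and C content. It is by gene, while the shares are by promoter entry, of which these genes had 10. The TCF/LEF core and the TATA box were each held by 1 gene. Of the 4 with GGCGCC, Bmpr1a rose and the other 3 did not pass.

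Bmp2, a ligand known for inducing bone and for roles in heart and kidney development, had signals of 76.5 and 37.6 on the mutant arrays against 246 and 327 on the wild-type arrays. The groups did not overlap, and both mutant signals were low. The log2 difference was -2.09 ± 0.35 (SE), a 4.26-fold lower level with a 95% interval of 2.46-fold to 7.38-fold (adjusted p = 0.00771). Only 0.455% of tested probe sets had a lower difference. Both mutant signals lay below 94.2, the level of the filter. Its size depends on this low end of the scale, with a log2 difference of -1.54 when 64 was added in place of 16. When an array was left out, Bmp2 passed each time it could be tested, and with wild-type replicate 2 left out it passed once the filter was taken over all 4 arrays (log2 difference -1.90, adjusted p = 0.0216). By rule, the 3 genes whose centred log2 values over the 4 arrays lay nearest to those of Bmp2 were Tmem25, Tceanc2 and Slc7a13, at Euclidean distances of 0.19, 0.31 and 0.35. Their mutant signals also lay near or below the level of the filter, at 65.7 and 25.5, 102 and 38.9, and 61.2 and 29.3, in that order.

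Bmp4, the ligand of the periureteric mesenchyme, read 1002 and 1049 on the mutant arrays against 958 and 1134 on the wild-type arrays. The mutant arrays lay between the wild-type ones. The fold over wild type was 0.984 with a 95% interval of 0.812 to 1.19 (adjusted p = 0.933).

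Bmp5, a ligand close in sequence to BMP7, rose at its brightest probe set, 1455851_at. The signals were 440 and 449 on the mutant arrays against 284 and 268 on the wild-type arrays. The groups did not overlap, and the level was 1.58-fold higher (95% interval 1.22 to 2.05, adjusted p = 0.0400). At a dimmer probe set, 1421283_at, the signals of 177 and 202 in the mutant overlapped those of 146 and 195 in the wild type (adjusted p = 0.770). The remaining one, 1421282_at, lay below the filter at 21.3 and 93.5 against 20.6 and 70.7. The call at the brightest probe set was close to the threshold. It was lost when mutant replicate 1, mutant replicate 2 or wild-type replicate 2 was left out (adjusted p = 0.159, 0.173 and 0.0608), while the log2 difference stayed between 0.62 and 0.70 over the 4 fits with an array left out.

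Bmp7, the progenitor survival factor, had nearly equal signals at its brightest probe set, 1435479_at, with 1370 and 1371 on the mutant arrays against 1354 and 1332 on the wild-type arrays. The fold was 1.02 with a 95% interval of 0.875 to 1.19 (adjusted p = 0.892). Both other probe sets read lower in the mutant without passing. At 1418910_at the signals were 562 and 620 in the mutant against 680 and 833 in the wild type (log2 difference -0.34, adjusted p = 0.185). At 1432410_a_at they were 491 and 484 against 503 and 646 (log2 difference -0.22, adjusted p = 0.453). The mutant and wild-type arrays did not overlap at any of the 3, but the direction at the brightest was opposite to that at the others.

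**Figure D2:**
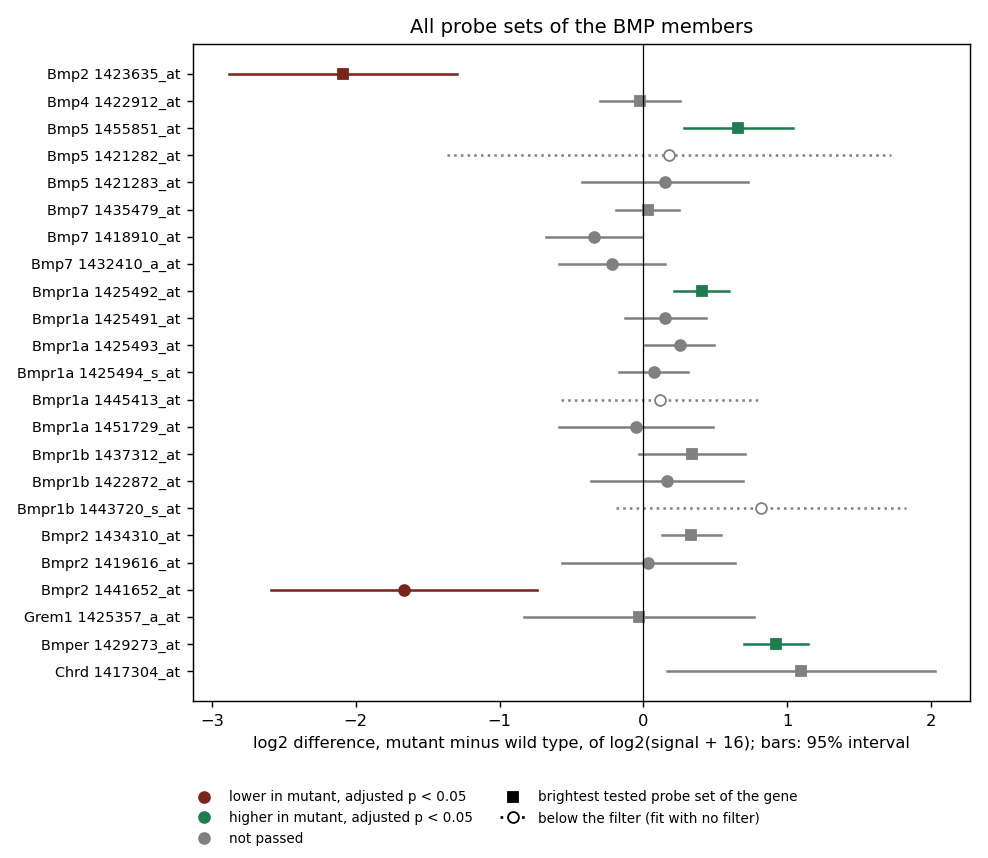
Log2 difference (mutant minus wild type, of log2(signal + 16)) with its 95% interval for all 23 probe sets of the 10 BMP genes, in the order ligands, receptors, antagonists; squares mark the brightest tested probe set of a gene, and open points the 3 below the filter. The 2 probe sets lower in the mutant are those of Bmp2 at -2.09 and the dim 1441652_at of Bmpr2 at -1.66, and the 3 higher ones belong to Bmp5, Bmpr1a and Bmper.

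The type I receptor gene Bmpr1a rose at its brightest probe set, 1425492_at, with 3275 and 3149 on the mutant arrays against 2406 and 2438 on the wild-type arrays. The groups were far apart relative to their spread, and the level was 1.32-fold higher (95% interval 1.16 to 1.51, adjusted p = 0.0199). At 1425493_at the signals were 1213 and 1237 in the mutant against 989 and 1063 in the wild type, also without overlap (log2 difference 0.25, adjusted p = 0.174). The remaining 3 tested probe sets had log2 differences from -0.051 to 0.15 and adjusted p from 0.498 to 0.925, and 1445413_at lay below the filter with at most 19.0 on any array. The call at 1425492_at was lost without mutant replicate 1 (adjusted p = 0.156), without mutant replicate 2 (0.102), and with the arrays centred on their medians (0.121).

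Bmpr1b, the second type I receptor gene, read 593 and 524 on the mutant arrays against 484 and 396 on the wild-type arrays at its brightest probe set. Every mutant value was above every wild-type value, but the log2 difference of 0.34 ± 0.16 (SE) did not pass (adjusted p = 0.234). The fold of 1.26 had a 95% interval of 0.978 to 1.63. At 1422872_at the groups overlapped, with 251 and 364 in the mutant against 294 and 245 in the wild type. The below-filter probe set 1443720_s_at read 65.2 and 121 against 47.7 and 40.4.

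Bmpr2, the type II receptor gene, gave opposite readings at its probe sets. At the brightest, 1434310_at, the signals were 2715 and 2931 on the mutant arrays against 2205 and 2269 on the wild-type arrays. The groups did not overlap, and the log2 difference of 0.33 ± 0.089 (SE) fell just outside the threshold (1.26-fold, 95% interval 1.09 to 1.45, adjusted p = 0.0501). It passed under 5 of the 15 alternative settings, among them without wild-type replicate 2 (adjusted p = 0.0340). At 1441652_at the signals were 30.6 and 81.3 in the mutant against 213 and 183 in the wild type, a 3.17-fold lower level (95% interval 1.67 to 6.0, adjusted p = 0.0354). This dim probe set was tested because of its wild-type signal, and its call was lost without mutant replicate 1 (adjusted p = 0.0869). Without either wild-type array it fell below the filter. At the third, 1419616_at, the signals of 183 and 189 in the mutant lay between the wild-type values of 148 and 221. The positions of these probe sets in the transcript were not analysed here, and the difference between them was not tested.

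Bmper rose, with the smallest adjusted p of the 10 genes. Its single probe set read 1935 and 1981 on the mutant arrays against 1039 and 1011 on the wild-type arrays. Replicates lay within a few percent of each other, and the gap between the groups was far larger. The log2 difference was 0.92 ± 0.096 (SE), a 1.90-fold higher level with a 95% interval of 1.63 to 2.21 (adjusted p = 0.000866). It passed under all 15 alternative settings, with a log2 difference between 0.89 and 0.94.

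Chrd, the chordin gene, read 352 and 323 on the mutant arrays against 254 and 85.2 on the wild-type arrays. Both mutant values were above both wild-type values, but the wild-type arrays disagreed with each other. The log2 difference of 1.09 ± 0.41 (SE) did not pass (adjusted p = 0.134). Wild-type replicate 2 decided its size. Without wild-type replicate 2 the log2 difference was 0.39 (adjusted p = 0.323), and without wild-type replicate 1 it was 1.80 (adjusted p = 0.000517).

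Grem1, the gremlin gene, read 120 and 139 on the mutant arrays against 184 and 93.3 on the wild-type arrays. The mutant values lay between the wild-type ones. The fold of 0.979 had a wide 95% interval, 0.563 to 1.7 (adjusted p = 0.970), so a difference of the size seen for Bmper lies outside it, but one of the size seen for Bmp5 does not.

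**Figure D3:**
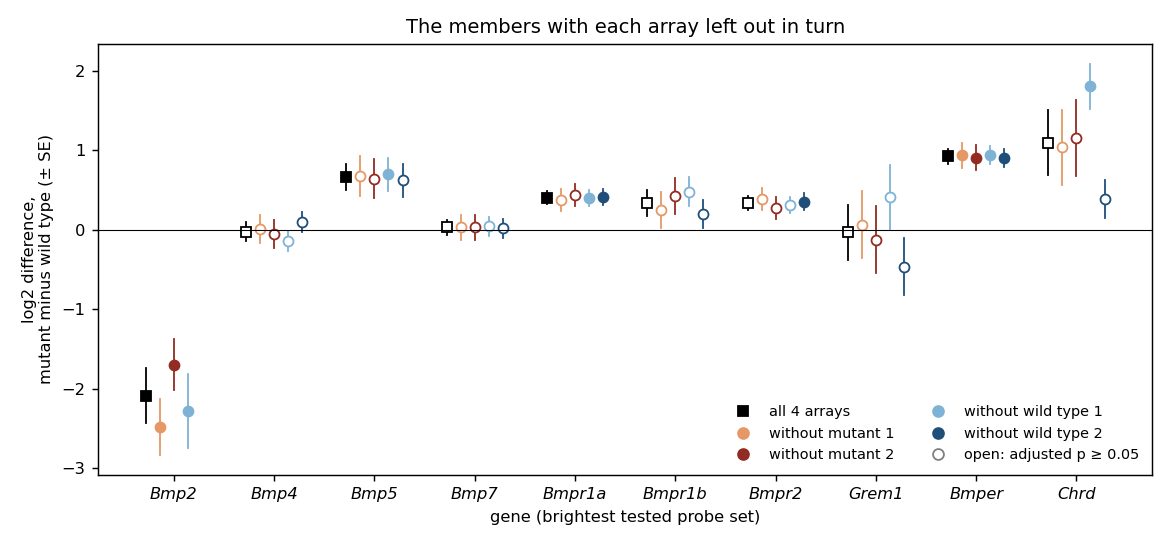
Log2 difference (mutant minus wild type, ± SE) of the 10 BMP genes at the brightest tested probe set with all 4 arrays (squares) and with each array left out (circles); filled points passed at an adjusted p under 0.05. Bmper stayed between 0.90 and 0.94 and filled throughout, Bmp5 and Bmpr1a kept their size but not their call, and Chrd ran from 0.39 to 1.80; Bmp2 has no point without wild-type replicate 2 because it then fell below the filter.

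The other genes of the pathway were taken as 4 lists of 58 entries, of which 53 were on the arrays and 43 were tested at their brightest probe set. Of the 43, 5 were lower and 2 higher, against 5.82% and 6.70% of all genes. Their log2 differences had a median of 0.0088. Among the 5 was Fstl3, whose mutant signals both lay under the filter level, so it had to differ to be tested. Nothing is read from the share of lower genes.

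Of the 4 tested genes for other ligands, 0 passed by limma, and 2 had an unadjusted p under 0.05. These were Gdf10, with 266 and 314 on the mutant arrays against 155 and 194 on the wild-type arrays (adjusted p = 0.0944), and Bmp6, with 251 and 196 against 296 and 352 (adjusted p = 0.176). The other 2 tested, Gdf2 and Gdf11, had folds of 1.06 each. The genes Bmp8a, Bmp8b, Bmp10, Bmp15 and Gdf5 lay below the filter.

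Of 10 other receptor and co-receptor genes, Acvr1 was higher and Eng was lower. Acvr1, which encodes the type I receptor ALK2, read 1297 and 1237 on the mutant arrays against 878 and 891 on the wild-type arrays (1.42-fold, adjusted p = 0.0192), though both of its further probe sets did not pass. The average of all its probe sets had a log2 difference of 0.17 (adjusted p = 0.447). Eng, the endothelial co-receptor endoglin, read 828 and 876 against 1404 and 1138 (1.47-fold lower, adjusted p = 0.0301), though its further probe set did not pass and the average of both had a log2 difference of -0.43 (adjusted p = 0.0821). Both calls were lost when either mutant array was left out, and that for Eng also without wild-type replicate 1. The co-receptor genes Rgma and Rgmb had log2 differences of 0.74 and 0.41 (adjusted p = 0.0830 and 0.0954).

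Of 13 other genes for extracellular antagonists and modulators, 2 were lower and 1 was higher. Sostdc1, a secreted antagonist of BMPs, read 238 and 208 on the mutant arrays against 977 and 1343 on the wild-type arrays (4.87-fold lower, adjusted p = 0.000263), with its further probe set called the same way. Fstl3, a follistatin-like binder of activins and BMPs, read 81.9 and 29.0 against 204 and 270 (3.78-fold lower, adjusted p = 0.0226), again with mutant signals below the filter level. Its call was lost with no filter (adjusted p = 0.0713) and without the intensity trend (0.0925). Without either wild-type array it fell below the filter, and with the filter of all 4 arrays it did not pass without wild-type replicate 2 (0.0547). Bmp1 is not a BMP ligand but a metalloproteinase that cleaves chordin and procollagens. It read 1509 and 1492 against 986 and 853 (1.63-fold higher, adjusted p = 0.00680), while its further probe set did not pass. The call for Bmp1 was lost with its probe sets averaged (log2 difference 0.30, adjusted p = 0.305) and without the intensity trend (0.0768). Vwc2, a chordin-like gene, read 296 and 237 against 111 and 151 and missed the threshold (adjusted p = 0.0525). Nog, the noggin gene, lay below the filter at 9.70 and 8.08 against 15.1 and 22.1.

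Of 16 genes for intracellular mediators and targets, Id1 and Id4 were lower and none was higher by limma, with 5 at an unadjusted p under 0.05. The Id genes encode inhibitors of basic helix-loop-helix factors. Id1 read 1881 and 1794 on the mutant arrays against 2663 and 2770 on the wild-type arrays, 1.47-fold lower (adjusted p = 0.00624). Id4 read 1435 and 1455 against 1928 and 2332, 1.46-fold lower (adjusted p = 0.0192). The call for Id1 was lost without mutant replicate 2 and that for Id4 without either mutant array (adjusted p up to 0.0533 and 0.0758). Id3 was next, with 5512 and 5030 against 6736 and 6331 (adjusted p = 0.0558). Id2 did not pass at its brightest probe set (adjusted p = 0.490), though 1 of its 2 further probe sets was called lower. Among the SMAD genes the smallest p was that of Smad5, at 2302 and 2424 against 2021 and 1811 (adjusted p = 0.0883).

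**Figure D4:**
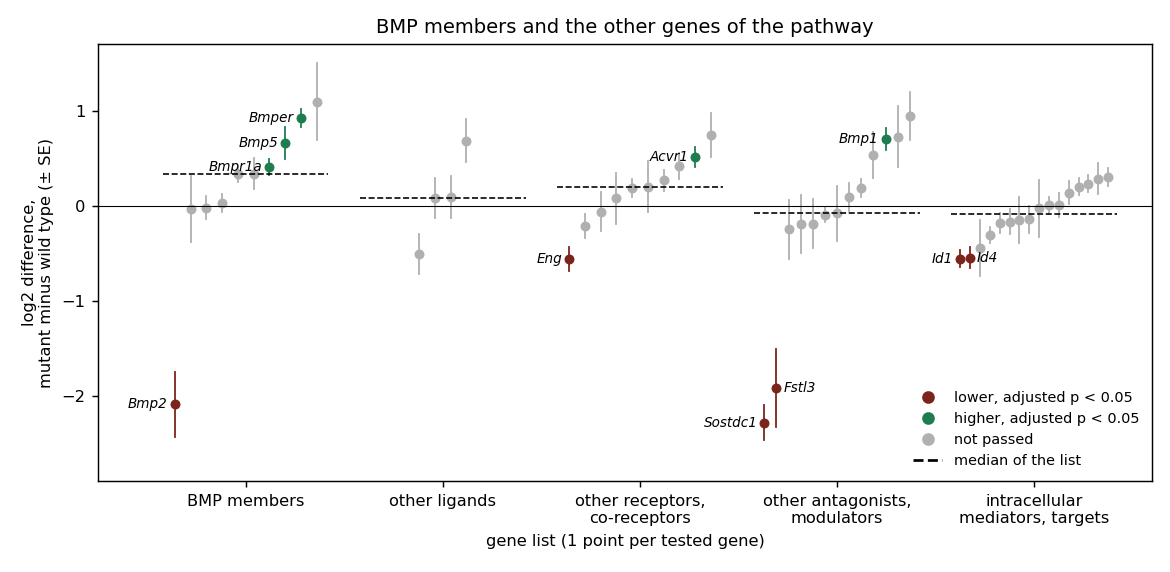
Log2 difference (mutant minus wild type, ± SE) of the tested BMP genes and of the 43 other tested pathway genes, 1 point per gene in 5 groups, with the median of each group as a dashed line. Labelled points passed at an adjusted p under 0.05; Bmp2, Sostdc1 and Fstl3 are the lowest, at -2.09, -2.28 and -1.92.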

How the data were processed

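The values the authors deposited are linear signal intensities, 1 for each probe set of an array. GCOS is the only tool in the submitters' processing notes, without a version, and the summary algorithm is not given in the sources used here. RNA was amplified in 1 round, per the labels' protocols. The mean after trimming 2% at each end was the same on all arrays, so no further normalization was applied. From these values log2(signal + 16) was computed, the 64 control probe sets and the lowest 40% by mean were left out, and 27022 of 45101 probe sets were fitted with limma 3.58.1 in R 4.3.3 (lmFit, eBayes with an intensity trend, two-sided, Benjamini-Hochberg over all tested). Intervals are 95%. The code was tested on simulated data. With 2 arrays against 2, an exact permutation test cannot give a two-sided p below 0.333, and the number of arrays limits the precision. Probe sets were named by the platform annotation (34958 with a single gene, 932 with several, 9211 not listed), and symbols were updated by gene identifier through RefSeq (GRCm38.p6). The members and gene lists were chosen with earlier results of these data known. The Hjv gene was listed under an old and a new symbol. Named genes were all members, Wnt4, called genes and the 4 smallest p of each pathway list, and the 3 nearest to the called member with the largest difference. Id2 and the named cell type markers stand outside this rule. Genes below the filter were named after their values were seen.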

Additional observations from a re-analysis of the deposited data

How the results depend on the processing

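Over 28 gene and probe set results under the alternatives, 364 of 423 values kept direction and side of the threshold, 38 lost a call, 8 gained one and 13 changed sign. Bmp2, Bmper, Sostdc1 and Wnt4 passed wherever they were tested. Bmp2 passed only narrowly without the intensity trend (adjusted p = 0.0494), and had an adjusted p of 0.0328 with no filter. Without the intensity trend, members had 1 probe set lower and 1 higher and 1 gene higher, other pathway genes 1 lower and 0 higher (858 of 27022 probe sets called in all, against 2920). With no filter, members had 1 probe set lower and other genes 3 lower. With the lowest 60% left out, members had 0 probe sets and 0 genes lower, because Bmp2 and 1441652_at were not tested. With a gene's probe sets averaged, 0 member genes were lower, because Bmp2 was not tested, 1 was higher and 0 other genes were higher. With 1 array left out, member probe sets ran from 0 to 2 lower and 1 to 4 higher, member genes from 0 to 1 lower and 1 to 4 higher, and other genes from 2 to 5 lower and 1 to 6 higher, while calls over all probe sets ran from 1572 to 4008. The lone array then left in a genotype is assumed to vary like those of the other. Chrd passed with arrays centred on their medians (adjusted p = 0.0071), and Bmp5 and Bmpr1a lost their calls without the trend (0.0697 and 0.153) and with probe sets averaged (0.527 and 0.460). An alternative chosen after seeing the data, without wild-type replicate 2 and with the filter of all 4 arrays, gave 2 member probe sets lower and 3 higher. Signs turned for values that had not passed: Bmp7 to -0.0050 with quantile normalization and to -0.18 with probe sets averaged, Bmpr2 to -0.43 likewise, and, with 1 array left out, Bmp4 to between -0.14 and 0.096 (0.0092 without mutant replicate 1, 0.096 also under the added alternative), Grem1 -0.47 to 0.41 (0.063 without mutant replicate 1), 1451729_at -0.24 to 0.14 (0.13 without wild-type replicate 1), 1422872_at -0.091 to 0.42, 1421283_at -0.042 to 0.34 and 1419616_at -0.23 to 0.30. Where no construction is named, the cause was not tested. The labels do not say that replicate numbers pair the arrays, and same-numbered deviations correlated at -0.017. With the replicate block, Bmp5 no longer passed (adjusted p = 0.0559), and members had 2 probe sets lower and 2 higher.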
